A study of Mus musculus with 2 samples.

Results

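Mir744, Mir149, Mir652, Mir330 and Mir22 are 5 microRNA (miRNA) genes that were abundant in mouse cerebral cortex and belong to no large miRNA family or cluster. They were chosen from the 20 genes of highest mean level, leaving out the most abundant, Mir139, and are 5 of the 2202 miRNA genes counted. The data were small RNA libraries (RNA under 30 nt) from wild-type control cortex of strain B6NCrl, 2 libraries in 1 group. A free-text label calls the mice female, while the sex and age fields hold no value, and both libraries name a single donor record. Separate animals are thus not stated, and the spread between the libraries may be technical. There was no treatment or second tissue, so the comparisons are between genes and between replicate 1 and replicate 2.

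A miRNA is cut from a hairpin precursor, first in the nucleus by Drosha and then in the cytoplasm by Dicer, which leaves a duplex of a 5p and a 3p arm. An Argonaute protein keeps an arm and uses its bases 2 to 8, the seed, to find messenger RNAs to repress. Many miRNA genes lie inside the introns or exons of longer host genes and are cut from the host's transcript, so a lone gene of this kind shares its promoter with its host unless it has one of its own. miR-22 is found in many tissues and has been studied in the mouse heart, miR-744 has been reported to repress transforming growth factor beta in human cells, and miR-149 and miR-330 have been studied mostly in human tumour cells.

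The precursors are printed first because each is the whole sequence over which reads were counted, and its base composition is set beside the results below. All 5 were identical in the RefSeq table (GRCm38.p6) and in GENCODE M21, and capitals mark both mature arms.
Mir744: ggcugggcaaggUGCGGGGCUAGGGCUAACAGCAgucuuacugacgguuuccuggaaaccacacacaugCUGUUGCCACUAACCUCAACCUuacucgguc
Mir149: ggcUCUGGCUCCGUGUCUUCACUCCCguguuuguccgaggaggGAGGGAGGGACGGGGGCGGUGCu
Mir652: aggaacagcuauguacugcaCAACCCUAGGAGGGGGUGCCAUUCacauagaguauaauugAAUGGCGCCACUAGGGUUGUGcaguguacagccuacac
Mir330: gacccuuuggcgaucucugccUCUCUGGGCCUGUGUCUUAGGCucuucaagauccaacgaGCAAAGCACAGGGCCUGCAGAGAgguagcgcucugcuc
Mir22: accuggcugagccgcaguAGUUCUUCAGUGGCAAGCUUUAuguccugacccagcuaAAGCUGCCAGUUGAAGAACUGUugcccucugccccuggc
The deposited table gives 1 count per gene, so reads of the 5p and 3p arms of a precursor cannot be told apart.

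The mature arms follow with the seed in capitals, so that the seeds can be compared with those of other mouse genes.
miR-744-5p: uGCGGGGCuagggcuaacagca
miR-744-3p: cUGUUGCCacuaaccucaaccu
miR-149-5p: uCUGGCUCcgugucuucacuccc
miR-149-3p: gAGGGAGGgacgggggcggugc
miR-652-5p: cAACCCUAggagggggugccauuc
miR-652-3p: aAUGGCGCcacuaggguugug
miR-330-5p: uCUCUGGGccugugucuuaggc
miR-330-3p: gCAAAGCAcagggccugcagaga
miR-22-5p: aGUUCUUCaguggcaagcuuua
miR-22-3p: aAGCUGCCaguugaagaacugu
No 2 of these 10 seeds are the same. The seed of miR-744-5p is G or C at all 7 bases, while those of miR-652-5p, miR-330-3p and miR-22-5p hold 3 such bases. For 7 of the 10 arms, no other mouse gene in the RefSeq table has an arm with the same seed. Of all 1738 mature arms in that table, 68.0% likewise have a seed found in a single gene. None of the 10 arms shares a run of 16 nt with the precursor of another counted gene, which matters because reads placed at several loci enter no gene's count. The check covered precursors only, so it does not show that reads of these arms map to a single locus.

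Replicate 1 held 4429633 reads counted in the sense direction of a miRNA gene and replicate 2 held 6985784. Reads placed at several loci made up 43.9% of replicate 1 and 47.9% of replicate 2, so all levels here are among uniquely placed reads. Levels are in CPM, the counts of a gene scaled to a fixed total of reads counted in genes, and were not divided by precursor length. Without molecular identifiers, ratios between genes are ratios of reads and need not be ratios of molecules. Neuron-enriched miRNA genes, a list of 14, summed to 7.85% of the counts in replicate 1 and 9.40% in replicate 2. Mir132 alone held 42570 of the 78516.9 CPM of this list in replicate 1 and 61586 of 94004.5 CPM in replicate 2. Of the 14, 10 reached 2 CPM in both libraries. The others were Mir124a-1, Mir124a-2, Mir124a-3 and Mir9-2, and any read of these genes that maps to more than a single locus is not in the sum. Of markers of other tissues, 9 genes of epithelium and sensory organs summed to 2.94% in replicate 1 and 0.388% in replicate 2. The red blood cell, liver and muscle lists each held at most 0.00313% in either library. Of the 5 muscle genes, 4 (Mir1a-1, Mir1a-2, Mir133a-1 and Mir133a-2) had 0 counts in both libraries, so that share rests on Mir206, and any read that maps to more than a single locus is not in it. A bulk library cannot tell fewer cells of a type from less RNA per cell.

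The 5 genes summed to 571945 counts in replicate 1 and 585703 in replicate 2, or 12.9% and 8.38% of the counts, a mean of 10.6% ± 3.20 (SD, n = 2). Without Mir22 the other 4 summed to 11.7% in replicate 1 and 6.15% in replicate 2. No read of any of the 5 was counted on the opposite strand in either library, where a count of 0 allows up to 0.677 CPM in replicate 1 and 0.429 CPM in replicate 2. Either-strand and sense counts of these genes were equal.

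Mir744 was the most abundant of the group. It had 235165 counts (53089 CPM) in replicate 1 and 162484 counts (23259 CPM) in replicate 2, a mean of 38174 ± 21093 CPM (SD, n = 2). Its share was 5.31% of the counts in replicate 1 (95% Wilson interval 5.29 to 5.33) and 2.33% in replicate 2 (2.31 to 2.34). It ranked 3 among all genes in replicate 1 and 9 in replicate 2.

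By mean level Mir149 and Mir652 came next, although in replicate 2 both lay below Mir22. Mir149 had 106382 counts (24016 CPM) in replicate 1 and 91682 counts (13124 CPM) in replicate 2, a mean of 18570 ± 7702 CPM (SD, n = 2). Mir652 had 94219 counts (21270 CPM) in replicate 1 and 96795 counts (13856 CPM) in replicate 2, a mean of 17563 ± 5243 CPM. Mir149 was above Mir652 in replicate 1 and below it in replicate 2. In rank, Mir149 stood at 9 in replicate 1 and 17 in replicate 2, and Mir652 at 12 and 16.

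Mir330 and Mir22 differed in the library in which they were high. Mir330 had 84036 counts (18971 CPM) in replicate 1 and 78767 counts (11275 CPM) in replicate 2, a mean of 15123 ± 5442 CPM (SD, n = 2). Mir22 had 52143 counts (11771 CPM) in replicate 1 and 155975 counts (22327 CPM) in replicate 2, a mean of 17049 ± 7464 CPM. Mir22 was the only one of the 5 with its higher level in replicate 2. It moved furthest in rank, at 23 in replicate 1 and 11 in replicate 2, so that in replicate 1 it lay outside the first 20.

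In order of mean level the genes ranked 5 (Mir744), 12 (Mir149), 13 (Mir652), 14 (Mir22) and 17 (Mir330). Each overlapped, over its 2 libraries, with the genes directly above and below it in the order of all genes. Mir744 overlapped with Mir127 above it (46372 CPM in replicate 1 and 43249 in replicate 2) and with Mirlet7i below it (28269 and 44115 CPM). Among the 10 pairs within the group, the ranges overlapped in 7, and the 3 that did not were Mir744 with Mir652, Mir330 and Mir22. The limit that chose the genes fell between Mir23a at rank 20 (10194 ± 3226 CPM, SD, n = 2) and Mir433 at rank 21 (10173 ± 4160 CPM), which are not members and whose ranges overlap. Divided by precursor length, the mean levels ranked 6 for Mir744, 9 for Mir149, 15 for Mir652, 16 for Mir22 and 18 for Mir330, the same order within the group.

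**Figure D1:**
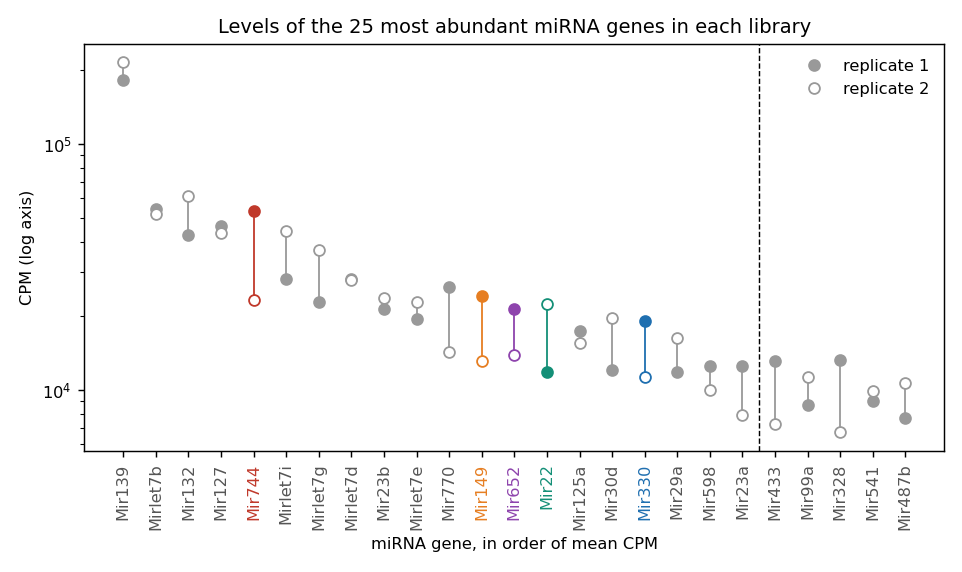
CPM on a log axis for the 25 genes of highest mean CPM, with replicate 1 as a filled point and replicate 2 as an open point joined by a line; the dashed line marks the limit after rank 20. Mir744, Mir149, Mir652 and Mir330 (coloured) are higher in replicate 1, and Mir22 is higher in replicate 2 (22327 CPM, against 11771 CPM in replicate 1).

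The ratio between the libraries was compared next, since the genes were chosen by their mean and not by this ratio. It is given as the log2 ratio of replicate 1 over replicate 2 after TMM scaling, with an exact 95% counting interval, for the 438 genes at 2 CPM or more in both libraries. A gene was called at a Benjamini-Hochberg adjusted p under 0.05 in an exact binomial test and a ratio of at least 2. With a single library on either side, the test weighs counting error alone and says nothing of conditions.

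Of the 5 genes, 2 were called, Mir744 higher in replicate 1 and Mir22 higher in replicate 2. Among all 438 genes 79 were called, 18% of them. Of these, 38 (8.68%) were higher in replicate 1, while 41 (9.36%) were so in replicate 2. With 5 genes, 2 calls are too few to set against that share. With library totals in place of TMM the split of calls was 55 and 29, and the median log2 ratio of all genes was 0.16, against 0.03 with TMM.

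Mir744 had a log2 ratio of 1.07 (1.06 to 1.07), a ratio of 2.09 times. That is just past the limit, and its call ended once the trend on precursor GC content was taken out (0.94) or genes of low count were kept in (0.97). Mir22 had a log2 ratio of -1.05 (-1.06 to -1.03). Its call ended with library totals (-0.92). For both genes the counting interval was narrower than the shift between these settings. Choroid plexus genes, 5 of 5 detected, summed to 1173 CPM in replicate 1, against 2471 CPM in replicate 2. By summed CPM the other marker lists were also higher in replicate 2, except that of epithelium and sensory organs. For the neuron-enriched list this rests on Mir132, at a TMM log2 ratio of -0.66. In that list Mir212 (0.34), Mir129-2 (0.35), Mir598 (0.20) and Mir138-2 (0.05) were higher in replicate 1, and the other detected genes in replicate 2. In the vascular list Mir126a was at -0.97, Mir143 at -0.02 and Mir145a at -0.08. Oligodendrocyte genes summed to 7110 CPM in replicate 1 and 7851 CPM in replicate 2. Microglia genes summed to 1341 and 1940 CPM in the same order, and vascular genes to 4286 and 5428 CPM. The part of any of these lists in the ratio of Mir22 was not tested.

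Mir149, Mir330 and Mir652 were higher in replicate 1 by less than the limit. Their log2 ratios were 0.75 (0.73 to 0.76) for Mir149, 0.63 (0.61 to 0.64) for Mir330 and 0.49 (0.48 to 0.51) for Mir652. All 3 were past counting error in the binomial test, as were 280 of all 438 genes. At a ratio of 1.5, 4 of the 5 genes were called and Mir652 was not, when 39% of all detected genes were called.

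The median absolute log2 ratio of the 5 genes was 0.75, against 0.50 over all 438 detected genes. The 15 other genes among the first 20 had a median absolute log2 ratio of 0.37, and none of them was called, although all 15 were past counting error. The 97 genes whose mean reached 1000 CPM had a median absolute log2 ratio of 0.57, and 18 of them were called. Among these 97, Mir744 had the 8th highest ratio. Of the 7 above it, 6 were of the epithelium and sensory organ list (Mir200c, Mir182, Mir183, Mir375, Mir429 and Mir200b), and the other was Mir497. That list as a whole had 9 of 9 genes detected and summed to 29412 CPM in replicate 1, against 3879 CPM in replicate 2; its part in the ratio of Mir744 was not tested. With library totals in place of TMM the log2 ratio of Mir744 was 1.19, and with those 9 genes left out of the totals it was 1.23. Mir22 had the 10th lowest ratio of the 97, next to Mir411 and Mir26b.

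**Figure D2:**
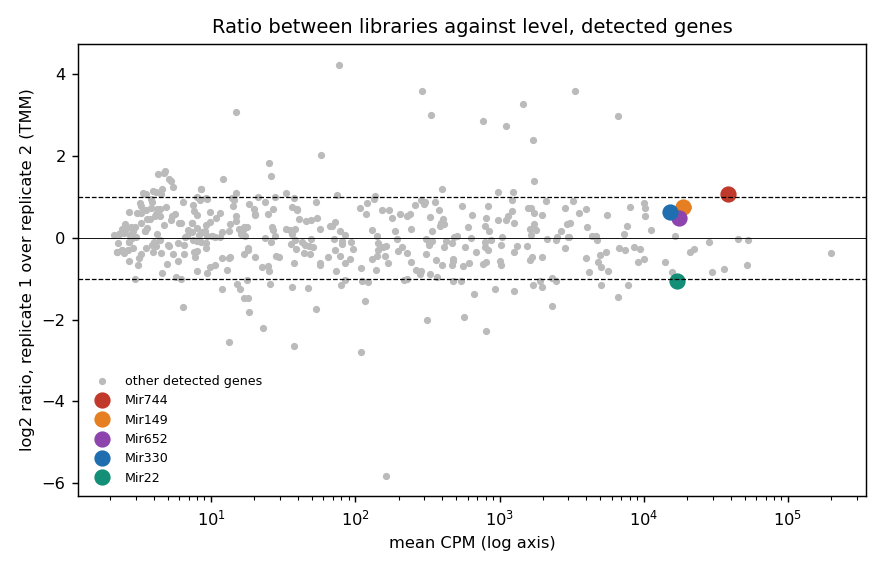
Log2 ratio of replicate 1 over replicate 2 (TMM) against mean CPM on a log axis for the 438 detected genes, with dashed lines at a ratio of 2 in either direction. The 5 genes (coloured) lie at the abundant end, with Mir744 at 1.07 and Mir22 at -1.05 just past the lines and the other 3 between 0.49 and 0.75.

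Ratios between members within a library need no scaling. Mir744 exceeded Mir22 by 4.51 times in replicate 1 and by 1.04 times in replicate 2, a change of 4.33 times, the largest of the 10 pairs. The 4 pairs with Mir22 changed by 2.91 to 4.33 times. Among Mir744, Mir149, Mir652 and Mir330 the 6 pairs changed by 1.09 to 1.49 times. Mir149 over Mir330 was the steadiest pair, at 1.27 in replicate 1 and 1.16 in replicate 2. Mir149 over Mir652 was 1.13 in replicate 1 and 0.947 in replicate 2. The contrast between Mir22 and the other 4 therefore does not rest on the choice of library size.

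**Figure D3:**
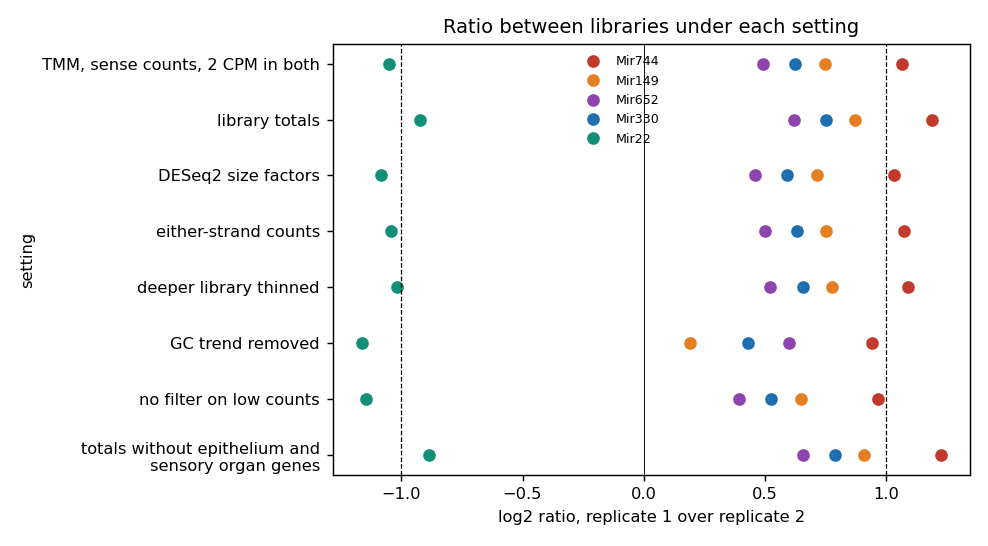
Log2 ratio of replicate 1 over replicate 2 for each of the 5 genes under 8 settings of scaling, strand, depth, filter and GC correction, with dashed lines at a ratio of 2. Mir744 runs from 0.94 to 1.23 and Mir22 from -1.16 to -0.89, each on both sides of its line, and no gene changes direction.

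The base composition of the precursor went with the ratio over all genes. Precursor GC content was 68.2% for Mir149, 58.2% for Mir330, 56.0% for Mir744, 55.8% for Mir22 and 50% for Mir652, against a median of 53.2% over the 438 detected genes (quartiles 46.1 and 59.4). Only 24 of the 438 precursors were richer in GC than that of Mir149, while 271 were richer than that of Mir652. Across those genes, which share the same 2 libraries and are not independent, Spearman's rho of the log2 ratio with GC content was 0.45 and Pearson's r was 0.36. The median log2 ratio was -0.49 in the 32 genes below 40% GC and 0.75 in the 42 genes at 65% or above. Of those 42 genes, 39 were higher in replicate 1.

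The 5 genes stood at different distances from that trend. Mir149, at 0.75, lay at the median of the 42 genes at 65% GC or above, whose median level was 14.1 CPM. The trend at the GC content of Mir149 was 0.56, and with the trend removed its log2 ratio was 0.19. Mir744 and Mir22 differ by little in the GC content of the precursor. Their mature arms differ more, at 63.6% (5p) and 50% (3p) for Mir744 and 40.9% and 45.5% for Mir22. Mir744 and Mir22 lay on opposite sides of the 75 genes between 55% and 60% precursor GC, whose median was 0.20. In that range 8 genes had a higher ratio than Mir744 and 4 had a lower one than Mir22. With the trend removed, Mir744 was at 0.94, Mir330 at 0.43 and Mir22 at -1.16. Mir652 went against the trend on precursor GC. Its log2 ratio of 0.49 stood above a median of -0.05 in genes between 50% and 55% GC, and was 0.60 with that trend removed. The arms of Mir652 are richer in GC than its precursor, at 62.5% (5p) and 57.1% (3p). A trend of the ratio on the GC content of the arms was not tested. The adapter trimming document cited for replicate 1 differs from that cited for replicate 2, so trimming and library cannot be told apart.

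**Figure D4:**
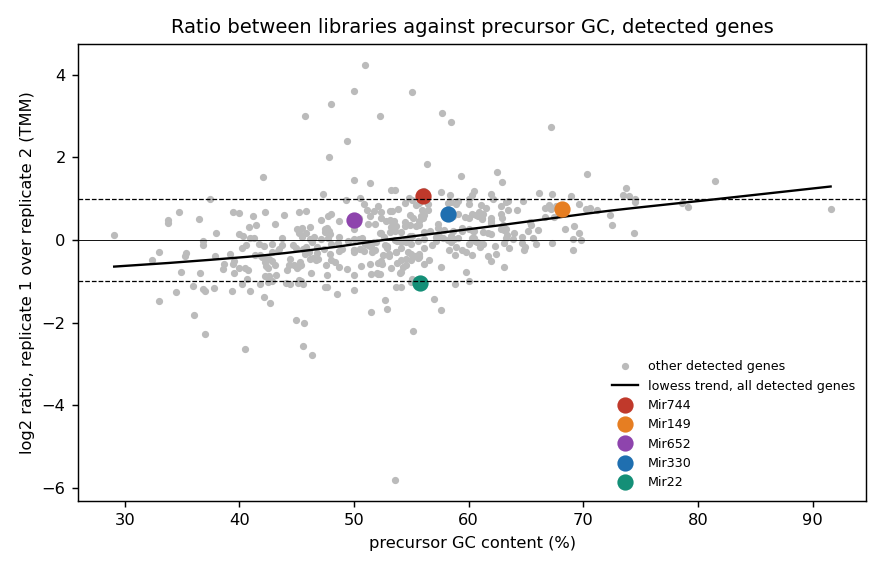
Log2 ratio of replicate 1 over replicate 2 against precursor GC content (%) for the 438 detected genes, with the lowess trend as a line and dashed lines at a ratio of 2. Mir149 (68.2% GC) lies near the line, while Mir744 and Mir22, at 56.0% and 55.8% GC, lie above and below it.

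Precursors of the 5 genes were also folded. The minimum free energy of the fold per 100 nt was -55.6 kcal/mol for Mir149, -50 for Mir652, -44.8 for Mir744, -44.1 for Mir22 and -43.4 for Mir330. The median over detected precursors was -43.7 kcal/mol (quartiles -49.0 and -38.5). Mir149 and Mir652 lay beyond the lower quartile, and 45 of 438 precursors had a lower value than Mir149.

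Positions are given in the first-numbered GENCODE transcript of each host. All 5 genes lie in a host gene on the same strand, 3 of them in introns of protein-coding genes in every host transcript that spans them. The spanning transcripts are 5 of 7 for Mir744, 1 of 5 for Mir149 and 7 of 9 for Mir652. Host messenger RNAs are longer than the size limit of these libraries, so host levels were not analysed here.

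Mir744 (chr11:65734733-65734832, minus strand, mm10) lies in intron 3 of Map2k4, which encodes a kinase that activates the JNK pathway. It is 53.5 kb from the start of the transcript and 359 nt after the preceding exon, in an intron of 15588 nt. The gene spans 100 kb, and the miRNA lies 53.4% of the way along it.

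Mir149 (chr1:92850378-92850443, plus strand) lies in intron 1 of Gpc1, which encodes glypican 1, a heparan sulfate proteoglycan anchored to the cell surface. It is 18.7 kb from the start of the transcript, in an intron of 21249 nt, and 2903 nt before the next exon. Mir652 (chrX:142739000-142739097, plus strand) lies in intron 2 of Tmem164, a gene for a transmembrane protein. It is 57.6 kb from the start, in an intron of 69090 nt, and 12942 nt before the next exon.

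Mir330 (chr7:19181465-19181562, plus strand) lies in Eml2, which encodes a microtubule-associated protein. It sits 261 nt from the start of the transcript used here, in an intron of 485 nt. The Eml2 gene as annotated starts further upstream, at chr7:19176421. Of the 7 Eml2 transcripts that reach over Mir330, 6 have it in an intron. The remaining one, a noncoding transcript, starts upstream of it and covers 84 of its 98 nt in exon 1.

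Mir22 (chr11:75463716-75463810, plus strand) is the only one of the 5 in an exon of every host transcript that spans it. It lies in exon 2 of the noncoding host gene Mir22hg, 2.07 kb from its start. The exon is 337 nt long there, and 165 nt long in the other Mir22hg transcript and in a noncoding transcript of the overlapping protein-coding gene Tlcd2.

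**Figure D5:**
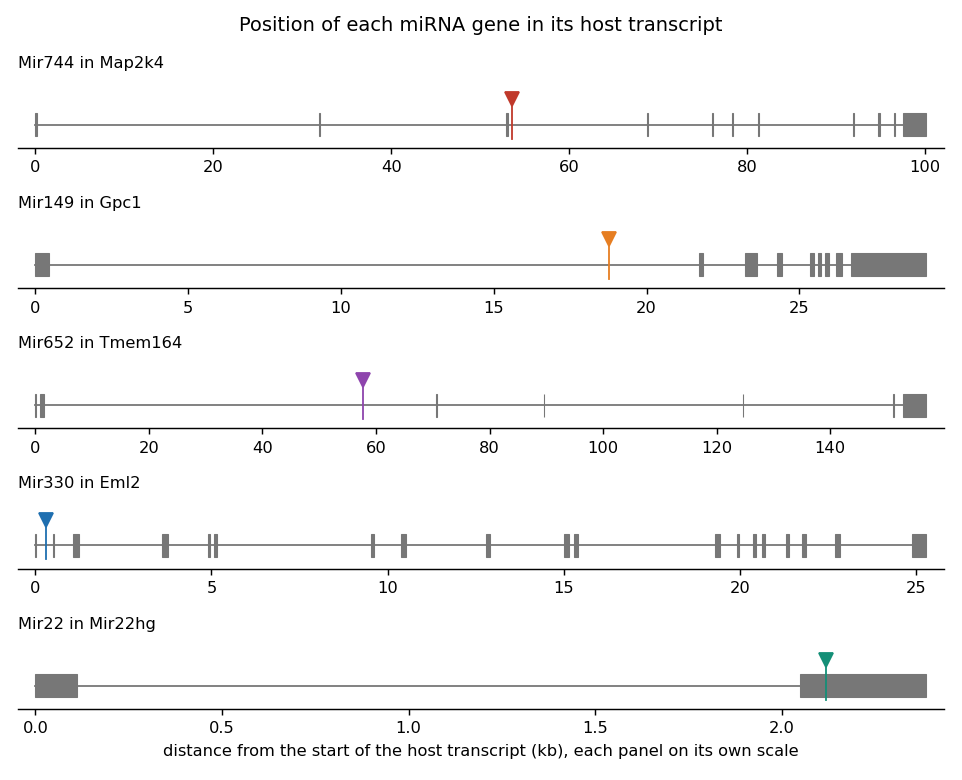
Position of each miRNA gene (coloured mark) along 1 annotated transcript of its host, in kb from the transcript's start, with exons as boxes and introns as lines; each panel has its own scale. Mir744, Mir149 and Mir652 lie 53.5, 18.7 and 57.6 kb from the start, Mir330 lies 0.261 kb from it, and Mir22 lies inside the second exon.

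No other miRNA gene is annotated in any of these hosts. The nearest annotated miRNA gene lies 667 kb from Mir744 (Gm25991, 0 counts in both libraries), 386 kb from Mir149 (Mir6900, 38 and 59 counts), 224 kb from Mir652 (Gm44351, 0 counts), 94.6 kb from Mir330 (Mir3100, 8 and 6 counts) and 87.6 kb from Mir22 (Mir3971, 0 counts). Being lone was part of how the genes were chosen. Of the 438 detected genes, 210 have no other annotated miRNA gene within 50 kb, and their median level was 17.4 CPM, against 154 CPM for the 228 others. Of these 210, 8 had a mean of at least 10000 CPM, the 5 genes among them. The median log2 ratio was 0.17 in the 210 and -0.08 in the 228, and 18.1% and 18.0% of them were called.

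By host class, 183 detected genes lie in introns of protein-coding genes, as Mir744, Mir149 and Mir652 do. Their median level was 26.2 CPM and their median log2 ratio 0.13, and 14.8% were called. The 112 detected genes that overlap an exon, as Mir330 and Mir22 do, had a median of 48.0 CPM and a median log2 ratio of 0.04, and 20.5% were called. All 5 genes stood far above the median of their class, as their choice requires. Of the first 20 genes, 8 lie in introns of protein-coding genes and 7 overlap exons.

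Shared seeds gave a further comparison. The seed of miR-330-5p is also that of miR-326-3p, which is printed here beside it to show the match.
miR-330-5p: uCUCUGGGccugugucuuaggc
miR-326-3p: cCUCUGGGcccuuccuccagu
Mir326, in an intron of Arrb1 on chromosome 7, had 6237 counts (1408 CPM) in replicate 1 and 6223 counts (891 CPM) in replicate 2, a mean of 1149 ± 366 CPM (SD, n = 2). Mir330 exceeded it by 13.5 times in replicate 1 and by 12.7 times in replicate 2. The log2 ratio of Mir326 was 0.54 (0.48 to 0.59), beside 0.63 for Mir330, and neither was called. These counts do not show how much of Mir330 is the 5p arm that carries the seed.

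The other shared seeds belong to genes with few or no uniquely placed reads. miR-149-3p shares its seed with arms of Mir7016 (3.01 ± 0.210 CPM), Mir1943 (3.29 ± 1.41 CPM) and 2 copies of another precursor, Gm27775 and Gm27740, with 0 counts in both libraries (SD, n = 2). miR-330-3p shares its seed with an arm of Mir6240, at 2.56 ± 1.80 CPM. Reads placed at both Gm27775 and Gm27740 enter no count, so the 0 counts of these 2 copies do not show that they are absent. Among counted genes with a seed in common with a member, Mir326 was thus the only one above 4.29 CPM of uniquely placed reads in either library.

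Outside the group itself, the genes most like each member were found by the Euclidean distance of log2(CPM + 1) over the 2 libraries, a description that rests on 2 points per gene. Of genes outside the group, Mir149 was closest to Mir770, which lies in an exon of Meg3, at a distance of 0.17, and Mir770 was also the closest of these to Mir652 (0.30). Mir770 had 26110 CPM in replicate 1, against 14276 CPM in replicate 2, and its precursor is 70.2% GC. Among the same outside genes, Mir330 was closest to Mir125a (0.48), and Mir22 to Mir30d (0.19), which had 11979 CPM in replicate 1, against 19641 CPM in replicate 2. Mir744 had no outside gene as near: Mir127 lay at 0.92 and Mirlet7d at 0.95.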

How the data were processed

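The authors deposited 1 table of raw read counts per library, with counts on either strand, in the sense direction and on the opposite strand of each annotated miRNA gene, on mm10 with annotation M21, per the deposited readme text. The sources used here give no aligner or counter. The 4 summary lines that name no gene were left out of library sizes, which leaves 35.4% of the reads of replicate 1 and 38.2% of those of replicate 2.

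The tables have no header; of the stranded columns, the larger in total in both libraries was taken as sense. Sense counts were scaled to CPM of all gene lines. All 2202 identifiers matched GENCODE M21, which gave coordinates (counted from 1), hosts and precursor sequences; mature sequences came from RefSeq. Ratios used 0.5 added counts, edgeR 4.0.16 TMM factors and an exact two-sided binomial test (scipy 1.17.1) over 438 genes. The test was checked, without the ratio limit, on simulated counts that held set changes and counting error alone. That check says nothing of other spread between libraries. The GC trend was a lowess fit (statsmodels 0.14.6), and folds were made with RNAfold 2.7.2. DESeq2 1.42.0 size factors were an alternative. No count model was fitted, since 1 group of 2 libraries leaves none to compare. The named genes were the 5 members, genes around rank 20, genes with a shared seed, the nearest miRNA gene and the 2 genes most like each member; the others named here were chosen after their values were seen. Intervals cover counting error only, as the tables hold no molecular identifiers. The members and lists were chosen with earlier results of these data known.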

Additional observations from a re-analysis of the deposited data

How the results depend on the processing

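No gene of the 5 changed direction under any of the 7 alternatives that alter the log2 ratio. The call of Mir744 was lost once the GC trend was taken out (0.94) and when genes of low count were kept in (0.97), and that of Mir22 with library totals (-0.92) and with library totals lacking the epithelium and sensory organ genes (-0.89). In each of these 4 cases 1 of the 5 genes was called in place of 2. At a ratio of 1.5, 4 were called, when 171 of all genes were (91 toward replicate 1, 80 toward replicate 2). Removing the GC trend left 27 genes called higher in replicate 2. With library totals lacking the epithelium and sensory organ genes, an alternative chosen after seeing the data, 61 genes were called toward replicate 1 and 24 toward replicate 2. Relative to all reads, also chosen after seeing the data, the 5 genes summed to 3.89%, since unmapped reads and those placed at several loci then enter the total. Without replicate 2 the 5 genes summed to 12.9%, and without replicate 1 to 8.38%. No paired analysis was possible because the series holds 1 group. Depth did not limit these genes, each with at least 52143 counts in either library; the number of libraries, 2, did.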
